A study of Sorghum bicolor with 4 samples.

Results

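Gene models inserted between older gene numbers were examined in the stem of field-grown sweet sorghum, variety SSV84 (Sorghum bicolor). A member is a row of the deposited expression table that carries 1 Sobic gene ID whose last 2 digits are other than 00. There were 4694 such rows among 31423 rows with a single ID (14.9%) and 34458 rows in all. The other 26729 single-ID rows end in 00 and are called 00 models here. RNA came from the middle internode at booting, when the panicle is still enclosed in the flag leaf sheath (2 libraries), in the milky stage of grain filling (1 library) and at physiological maturity (1 library). No genotype or treatment difference is given for them in the labels.

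A Sobic ID names the chromosome and then a running number that follows the order of genes along it. Numbers were first given in steps, which left room for later models. A revised annotation can fill such a gap with a new model, and it can also retire a model and put one or more models with new numbers in its place. The internode is the elongating and sugar-storing unit of a sweet sorghum stem.

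The values are FPKM (fragments per kilobase of transcript, scaled to the number of mapped fragments), 1 value per stage made by the authors, so none has an SD or an n. Differences below therefore lack a replicate check and carry no p-value. A row was counted as detected if it reached 1 FPKM in any stage. A detected row rose or fell, as the words are used below, where its log2(FPKM + 1) moved by 1 or more between a pair of stages. The added 1 understates the change of low values. The IDs are not paired with gene names or descriptions in the sources used here, so roles of members and tissue markers were not analysed here. In such bulk RNA, fewer cells of a type and less RNA per cell cannot be told apart.

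Most members shared a few endings. Of 82 different endings, 5 held 4243 members (90.4%). These were 50 with 2030 members, 01 with 1364, 66 with 417, 32 with 231 and 33 with 201. Members lay where their numbers place them, since 4652 of 4670 members on the chromosomes with a row on either side (99.6%) started between the rows of the next lower and next higher number.

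The endings split by whether the 00 ID of the same number was present. It was carried by a row of the table for 1798 of 2030 members ending in 50 (88.6%), for 385 of 417 ending in 66 (92.3%) and for 175 of 201 ending in 33 (87.1%). It was carried by a row for only 24 of 1364 members ending in 01 (1.76%) and for 7 of 231 ending in 32 (3.03%). Members with 50, 66 and 33 thus mostly stood beside a 00 model of their number, and members with 01 and 32 mostly stood without one. Over all endings, 2632 members (56.1%) had a 00 model of their number in the table and 2062 had none. Most numbers held a single member, 3978 of 4243, and 236 held a pair.

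Inserted models were detected less often than 00 models. Of the members, 1013 of 4694 (21.6%) were detected, against 15323 of 26729 00 models (57.3%) and 53.7% of all 34458 rows. In every stage, 756 members (16.1%) and 13347 00 models (49.9%) were at 1 FPKM or more. By stage, 865 members (18.4%) reached 1 FPKM at booting, 879 (18.7%) in the milky stage and 887 (18.9%) at maturity, so no stage stood apart. For 00 models the shares were 52.7% at booting, 53.5% in the milky stage and 54.5% at maturity. Any value above 0 was listed for 2429 members (51.7%) and 21868 00 models (81.8%), which leaves 2265 members listed at 0 in all stages.

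Detection differed among the members by ending and by whether the 00 model was there. Of 2062 members without a 00 model of their number, 648 (31.4%) were detected, against 365 of 2632 members with one (13.9%). Within the ending 50 the counts were 90 of 232 members without a 00 model (38.8%) and 228 of 1798 with one (12.7%), and the order was the same within 01, 66 and 33. Within the ending 32 it was the other way, with 43 of 224 members without a 00 model (19.2%) and 2 of only 7 with one. Members ending in 01 were detected in 438 of 1364 cases (32.1%), and each other frequent ending in 14.9% to 19.9%. All of these shares lay under that of 00 models, including the 32.6% of the 1340 members ending in 01 without a 00 model. Locus length differed between these groups as well, with overlapping loci included. Its median was 2399.5 bp in members without a 00 model and 1923.5 bp in members with one. Within the ending 50 the medians were 3893 and 1915 bp. The shares were not matched for length, so the part of length in them was not tested.

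**Figure D1:**
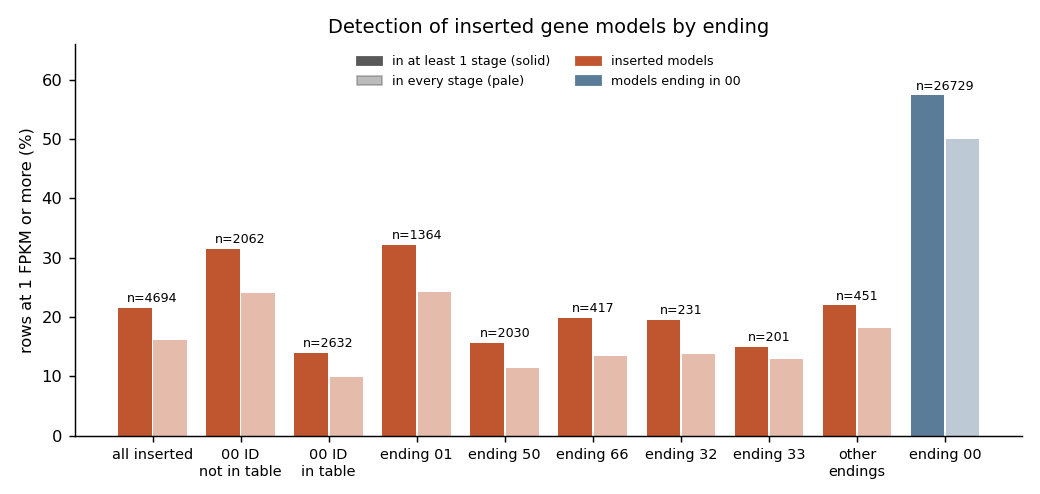
Share of rows at 1 FPKM or more (y axis, percent) in at least 1 stage (solid bars) and in every stage (pale bars), for inserted models by presence of the 00 ID and by ending, with 00 models on the right; n is the number of rows. The bar for all members stands at 21.6%, that for members without a 00 model at 31.4%, that for members with one at 13.9%, and that for 00 models at 57.3%. The shares are not matched for locus length.

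Members had shorter loci, and detection moved with locus length. A locus that overlaps another was given in the table as 1 shared span, so lengths were compared over unshared loci only. The median was 1704 bp over 3743 members (quartiles 930 and 2890 bp) and 3040 bp over 23041 00 models (quartiles 1673 and 4838 bp). In loci over 600 and up to 1000 bp, 61 of 706 members (8.64%) and 362 of 1784 00 models (20.3%) were detected. In loci over 4000 and up to 8000 bp, shared spans included, the counts were 251 of 725 members (34.6%) and 5785 of 7740 00 models (74.7%). With 00 models weighted to the locus lengths of the members, shared spans included, 47.8% of 00 models were detected, against 21.6% of members. Over unshared loci alone, an alternative chosen after seeing the data, the shares were 19.6% of members and 41.9% of weighted 00 models.

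Detected members were also expressed at a lower level. The median of the mean FPKM over the stages was 5.23 among the 1013 detected members (quartiles 1.82 and 16.6) and 12.3 among the 15323 detected 00 models (quartiles 3.94 and 32.1). A mean of 10 FPKM or more was reached by 359 detected members (35.4%) and 8507 detected 00 models (55.5%), and a mean of 100 FPKM or more by 41 members and 1085 00 models. Members with a 00 model of their number had a median of 4.08 FPKM, and those without one 5.80 FPKM. Both medians lay under that of 00 models. As a share of the summed FPKM of single-ID rows, members held 4.11% at booting, 4.31% in the milky stage and 4.09% at maturity.

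**Figure D2:**
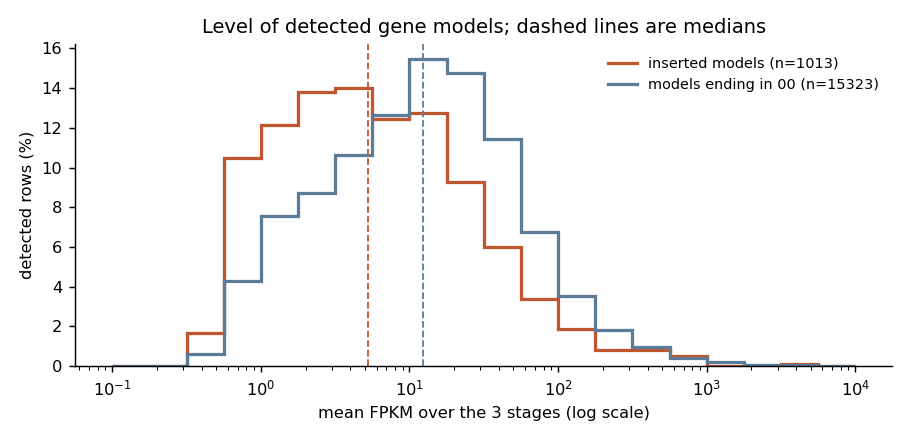
Distribution of the mean FPKM over the 3 stages (x axis, log scale) among detected inserted models and detected 00 models, as the percent of detected rows in each bin (y axis). Dashed lines mark the medians, 5.23 FPKM for inserted models and 12.3 FPKM for 00 models; the curve for inserted models lies to the left and both reach beyond 1000 FPKM.

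The means of the 12 highest members ran from 3999 down to 401 FPKM, and only the first passed 1000 FPKM. Sobic.003G071901 (chromosome 3, 6108596 to 6110604) had 4207 FPKM at booting, 4049 in the milky stage and 3740 at maturity. Its span is shared with another row, so reads of the overlapping models may not be told apart. Sobic.001G402050 (chromosome 1, 68757513 to 68759515) had 1031, 782 and 1070 FPKM in the same order of stages. Sobic.004G145801 (chromosome 4, 45028987 to 45031184) had 677, 663 and 717 FPKM, and Sobic.004G011566 (chromosome 4, 947826 to 950478) had 598, 564 and 646 FPKM. These 4 stayed high in all stages and passed the threshold of change in no comparison. None of the 12 had a 00 model of its number in the table. The same held for 35 of all 41 members with a mean of 100 FPKM or more, and for 648 of all 1013 detected members.

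Of the other 8, 5 also passed no threshold. Sobic.002G356101 (chromosome 2) had 808, 628 and 505 FPKM at booting, the milky stage and maturity, Sobic.001G336050 (chromosome 1) 768, 498 and 430, and Sobic.007G120401 (chromosome 7) 566, 577 and 428. Sobic.010G021401 (chromosome 10) had 457, 695 and 497 FPKM, and Sobic.004G159733 (chromosome 4) 462, 260 and 491. The last 3 of the 12 changed. Sobic.005G096101 (chromosome 5, 15112039 to 15113474) had 931 FPKM at booting, 280 in the milky stage and 218 at maturity (log2 difference for maturity vs booting −2.09). Sobic.004G161751 (chromosome 4, 51067670 to 51069897) had 729, 222 and 251 FPKM, which gave −1.71 for the milky stage vs booting. Sobic.004G337132 (chromosome 4, 66881274 to 66881432) had 238, 1073 and 82.1 FPKM, a peak in the milky stage in a locus of only 159 bp.

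Since members were lower, stage change was set beside 00 models weighted to the members' mean FPKM in 10 bins. From booting to the milky stage, 54 of 1013 detected members rose and 80 fell. The 54 rises were 5.33% of the detected members, against 5.32% of weighted 00 models and 4.83% of all 18505 detected rows. The 80 falls were 7.90%, against 5.87% of weighted 00 models and 5.90% of all detected rows. Rises were therefore about as frequent as among 00 models of the same level, and falls were more frequent by 2.03 percentage points. With locus length matched as well, shared spans included, the excess of falls was 1.13 points.

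The largest rise in this step was that of Sobic.010G012001 (chromosome 10, 1047752 to 1054394), with 0.0883 FPKM at booting, 19.5 in the milky stage and 58.4 at maturity (log2 difference 4.24). Its span is shared with another row. Sobic.001G170301 (chromosome 1, 14206452 to 14208245) had 3.95, 65.6 and 19.0 FPKM in order of stage (3.75), and Sobic.010G106601 (chromosome 10, 10257926 to 10259640) had 1.98, 22.2 and 3.83 FPKM (2.96). Both stood highest in the milky stage. A pair of neighbouring members on chromosome 2 was also among the 5 largest rises. Sobic.002G164960 (51442110 to 51443380) had 0.111, 6.39 and 4.36 FPKM (2.73), and Sobic.002G165020 (51463545 to 51466005) had 0.662, 12.5 and 5.29 FPKM (3.02).

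The largest fall was that of Sobic.001G334501 (chromosome 1, 62342119 to 62343997), with 20.8 FPKM at booting, 0.145 in the milky stage and a listed 0 at maturity (log2 difference −4.25). Sobic.001G212451 (chromosome 1, 19596784 to 19598508) had 9.64, 0.0497 and 0.116 FPKM (−3.34), and Sobic.008G161601 (chromosome 8, 59556719 to 59558721) had 13.1, 0.423 and 1.22 FPKM (−3.30). These 3 stood at 1.22 FPKM or less in both later stages. The other two fell and then rose again past the threshold. Sobic.003G443601 (chromosome 3) had 11.3 FPKM at booting, 1.08 in the milky stage and 5.85 at maturity (−2.56), and Sobic.003G168425 (chromosome 3), which shares its span with another row, had 11.8, 1.25 and 3.98 FPKM (−2.51).

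From the milky stage to maturity, 68 detected members rose and 57 fell. The rises were 6.71% of members, against 6.5% of weighted 00 models and 5.62% of all detected rows. The falls were 5.63% of members, against 3.62% of weighted 00 models and 3.63% of all detected rows, an excess of 2.01 percentage points. With locus length matched as well, shared spans included, the excess was 1.51 points. It was 1.08 points when loci of up to 600 bp were left out, an alternative chosen after seeing the data. The order of rises and falls among members turned with the scaling of the stages, with 59 rises and 62 falls when stages were rescaled by the median of ratios.

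Among members above 0 in the milky stage and at maturity, the 5 largest rises came from members nearly silent at booting and the milky stage. Of these 5, 4 stood alone on their loci. Sobic.008G067301 (chromosome 8, 7615219 to 7616405) stood at a listed 0 at booting, 0.102 FPKM in the milky stage and 12.9 at maturity (3.66 on the log2 scale). Sobic.001G133466 (chromosome 1, 10506061 to 10508940) had 0.02, 0.0137 and 8.76 FPKM in order of stage (3.27). Sobic.009G099150 (chromosome 9) stood at a listed 0 at booting, 0.0166 FPKM in the milky stage and 8.47 at maturity (3.22). These 3 members, like the others of the 5 given next, reached 1 FPKM at maturity and in no other stage. Sobic.001G186401 (chromosome 1) had 0.0155, 0.0434 and 5.05 FPKM (2.54), and Sobic.009G245101 (chromosome 9), on a shared span, had 0.0713, 0.0390 and 6.63 FPKM (2.88). A further member, Sobic.002G148166 (chromosome 2, 37812109 to 37835896), was listed at 0 at booting and in the milky stage and had 12.8 FPKM at maturity, so no fold is given. Its span is shared with another row.

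The largest falls of this step came from members that stood higher in the milky stage than at booting. Sobic.004G259366 (chromosome 4, 60474247 to 60474987) had 23.9 FPKM at booting, 87.5 in the milky stage and 1.86 at maturity, with −4.95 on the log2 scale for the later step. Sobic.004G337132, described above, gave −3.69, and Sobic.010G039150 (chromosome 10, 3099981 to 3100449) had 121, 507 and 48.1 FPKM (−3.37). Sobic.008G070350 (chromosome 8, 9182013 to 9185901) had 61.9, 106 and 12.2 FPKM (−3.02), and Sobic.001G013701 (chromosome 1, 1253072 to 1254963) had 7.23, 8.64 and 0.332 FPKM (−2.86). All 5 ended below their booting value at maturity.

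Over the whole span from booting to maturity, 86 detected members rose and 89 fell. The rises were 8.49% of members, against 9.84% of weighted 00 models and 8.10% of all detected rows. The falls were 8.79% of members, against 6.08% of weighted 00 models and 6.19% of all detected rows. Falls were thus more frequent among members, by 2.71 percentage points, than among 00 models of the same level, and by 1.44 points with locus length matched as well (shared spans included). The difference in rises, −1.35 points, changed sign with the settings and was 0.625 points with a pseudocount of 5. The balance among members moved with the scaling of the stages, with 76 rises and 97 falls after the median of ratios and 69 and 97 after quantile normalization.

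Among members above 0 at booting and maturity, the rises over the whole span were led by Sobic.010G012001 (5.77 on the log2 scale). Sobic.010G229450 (chromosome 10, 57224135 to 57225263) had 3.57 FPKM at booting, 21.3 in the milky stage and 89.0 at maturity (4.30), and rose in both steps. Sobic.001G133466 gave 3.26. Sobic.003G367650 (chromosome 3, 68362685 to 68372312), on a shared span, had 7.40, 40.4 and 79.0 FPKM (3.25). Sobic.009G089101 (chromosome 9, 15419809 to 15439927) had 1.29, 3.41 and 19.7 FPKM (3.18). Of these 5, 4 were higher at each later stage.

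Among members above 0 at booting and maturity, the falls were led by Sobic.006G187401 (chromosome 6, 54210994 to 54211323), in a locus of 330 bp. It had 87.6 FPKM at booting, 15.5 in the milky stage and 3.77 at maturity (log2 difference −4.21). Sobic.004G303466 (chromosome 4, 64241690 to 64242477) had 171, 46.0 and 22.0 FPKM (−2.91). Both fell in each step. Sobic.001G212451 gave −3.25, Sobic.004G259366 −3.12 and Sobic.008G161601 −2.66. Sobic.001G334501 fell to a listed 0 at maturity, which left it outside this ranking.

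**Figure D3:**
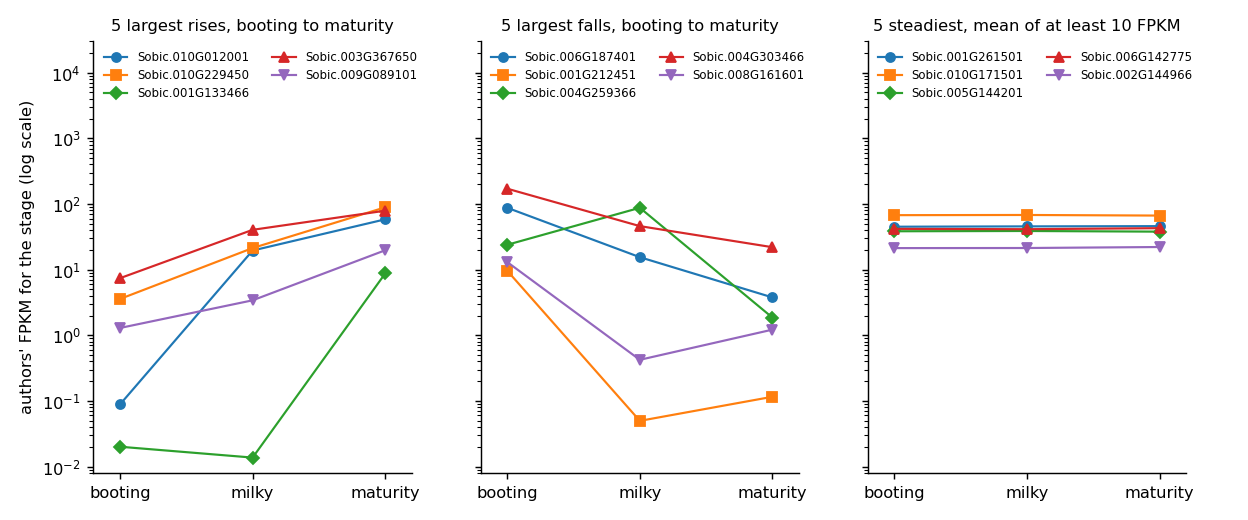
The authors' FPKM for each stage (y axis, log scale) at booting, the milky stage and maturity for inserted models, namely the 5 top rises and 5 top falls from booting to maturity (above 0 in both stages) and the 5 steadiest at means of 10 FPKM or more. Sobic.010G012001 climbs to 58.4 FPKM, against 0.0883 at booting, Sobic.006G187401 ends at 3.77 FPKM, against 87.6 at booting, and the steady members are flat between 21.3 and 68.0 FPKM.

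Most members did not change. Of 1013 detected members, 752 (74.2%) passed the threshold in no comparison, and 261 (25.8%) passed it in at least 1. Of 15323 00 models, 3186 did so (20.8%, not weighted for level or locus length). In loci over 600 and up to 1000 bp, shared spans included, the shares were 42.6% of members and 46.1% of 00 models. Members were higher in each other length class, as with 23.7% and 22.4% over 2000 and up to 4000 bp. The most frequent patterns of change were a rise in the second step that held over the whole span, with 40 members (3.95%) and 456 00 models (2.98%), and a fall in the first step that held, with 38 members (3.75%) and 418 00 models (2.73%). A rise in both steps was seen in 3 members (0.296%) and 63 00 models (0.411%), and a fall in both in 6 members (0.592%) and 20 00 models (0.131%). A rise followed by a fall was seen in 18 members (1.78%) and 185 00 models (1.21%), and a fall followed by a rise in 9 members (0.888%) and 158 00 models (1.03%). These shares of detected rows are not weighted for level or locus length. The 5 steadiest members with a mean of at least 10 FPKM were Sobic.001G261501, Sobic.010G171501, Sobic.005G144201, Sobic.006G142775 and Sobic.002G144966. Sobic.001G261501 (chromosome 1, 36154209 to 36162915) had 45.0 FPKM at booting, 45.6 in the milky stage and 46.0 at maturity, and the log2 range of the 5 lay between 0.03 and 0.05 after rounding. Of 359 members with a mean of at least 10 FPKM, 157 (43.7%) kept a log2 range under 0.5. The share was 4385 of 8507 00 models (51.5%), and 51.4% of 00 models weighted to the members' level. Locus length was not matched in this comparison.

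The excess of falls was largest at means from 50 to 500 FPKM. At a mean of 50 to 100 FPKM, 11 of 42 members (26.2%) fell from booting to maturity, against 88 of 1325 00 models (6.64%), and 0 members rose, against 49 00 models (3.70%). At 100 to 500 FPKM, 9 of 33 members (27.3%) fell, against 85 of 955 00 models (8.90%), and again 0 members rose. Above 500 FPKM the order was the other way, with 0 falls among 8 members and 33 among 130 00 models (25.4%). It was also the other way under 0.5 FPKM, with 0 falls among 8 members and 5 among 44 00 models (11.4%). At 0.5 to 1 FPKM, 6.09% of 115 members and 7.24% of 704 00 models fell. At 20 to 50 FPKM, 14 of 121 members (11.6%) rose, against 4.37% of 3229 00 models. In that bin 10 members (8.26%) fell, against 4.55% of 00 models. At 10 to 20 FPKM the share of falls was 6.45% of 155 members and 4.85% of 2868 00 models. These levels were read out of 10 after their values were seen, and few members stand in the upper ones.

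**Figure D4:**
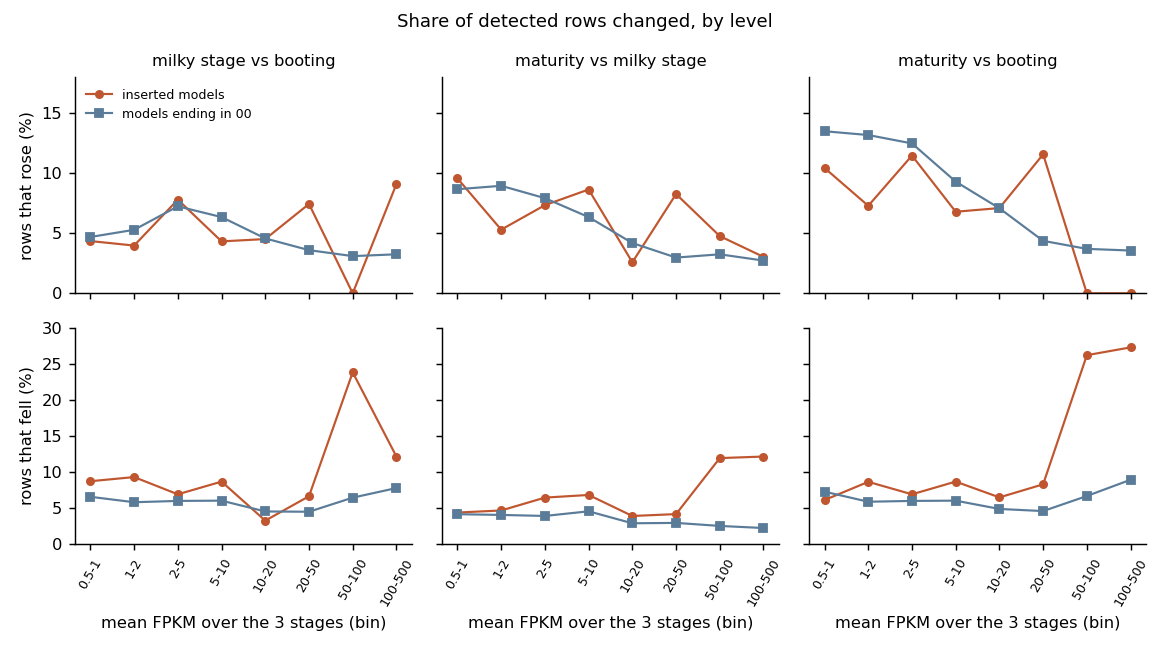
Share of detected rows that rose (upper panels) and fell (lower panels) in each comparison (y axes, percent), by bin of mean FPKM over the 3 stages (x axis), for inserted models and 00 models; bins with under 20 inserted models are not drawn. For maturity vs booting, falls among inserted models reach 26.2% and 27.3% in the bins from 50 to 100 and from 100 to 500 FPKM, against 6.64% and 8.90% of 00 models.

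Abundant members in short loci fell more often than abundant members in longer loci. Among members with a mean of 20 FPKM or more, 17 of 49 in loci of up to 2000 bp fell from booting to maturity (34.7%), against 92 of 556 00 models (16.5%). In longer loci the counts were 13 of 155 members (8.39%) and 261 of 5083 00 models (5.13%). The members with such means and loci of up to 600 bp numbered 8 and were singled out after their values were seen. Besides Sobic.004G337132, Sobic.010G039150, Sobic.004G159733 and Sobic.006G187401, they were Sobic.001G038050 (285 bp; 261, 644 and 124 FPKM in order of stage), Sobic.010G131950 (345 bp; 224, 120 and 138 FPKM), Sobic.004G120150 (364 bp; 127, 47.7 and 22.7 FPKM) and Sobic.009G038401 (577 bp; 11.3, 17.2 and 42.4 FPKM). Of these 8, 3 peaked in the milky stage past the threshold in both steps, 2 fell in both steps, 1 rose in the second step and 2 passed no threshold. In short loci FPKM depends strongly on the length used for scaling, and its part in these values was not tested.

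Detection in a single stage was about as frequent among members as among 00 models of the same level. Of 1013 detected members, 151 (14.9%) reached 1 FPKM in 1 stage only, against 14.5% of weighted 00 models. Of those 151 members, 52 were detected at booting, 42 in the milky stage and 57 at maturity (37.7%). Of the 1024 00 models detected in 1 stage only, 281 were detected at booting, 222 in the milky stage and 521 at maturity (50.9%). Maturity was therefore the most frequent single stage in both, with a smaller share among members. Among rows above 0 in some stage, 33% of 2429 members were listed at 0 in at least 1 other, against 28.3% of 00 models weighted by mean FPKM. The shares in this paragraph were not matched for locus length.

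Inserted models took a larger share of the single-ID rows towards the middle of the chromosomes, where rows were few. With each of the 10 chromosomes cut into 10 equal segments up to the last row end and the same segments pooled, members were 12.9% of the 6537 rows in segment 1, 12.9% of 7747 in segment 10 and 55.2% of 210 in segment 5 (116 members). Detection of members was also highest in segment 5, where they were few. Of members, 28.4% were detected in segment 5 and between 13.2% and 23.7% in the others. Of 00 models, 47.9% were detected in segment 5 and between 48.6% and 61.2% in the others. By chromosome, members made up between 13.5% of rows on chromosome 2 and 20.4% on chromosome 5. Chromosome 5 also had the lowest share of detected members, 75 of 455 (16.5%), and of detected 00 models (39.3%).

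**Figure D5:**
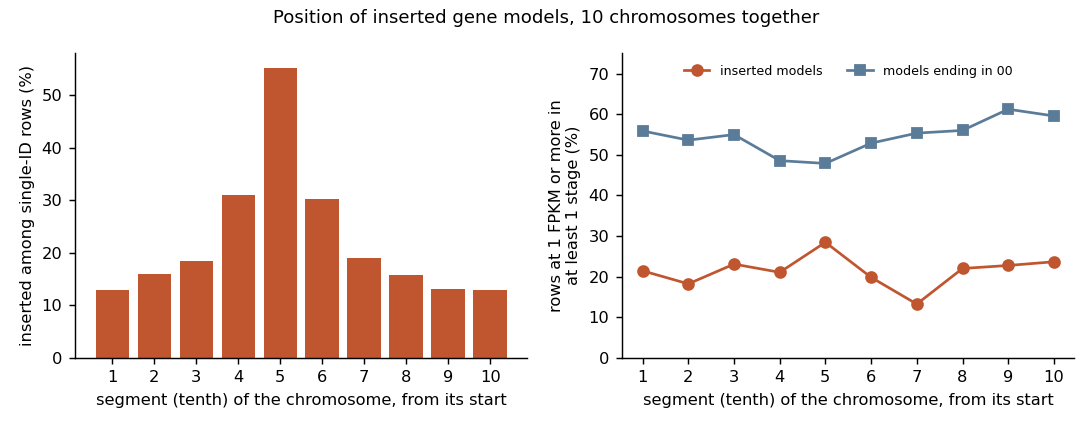
Left, inserted models as a share of single-ID rows (y axis, percent) by segment of the chromosome (x axis, 10 equal segments from one end to the other), with 55.2% in segment 5 and 12.9% at both ends. Right, share of inserted models and of 00 models at 1 FPKM or more in at least 1 stage (y axis, percent) by the same segments; the line for inserted models stays below that for 00 models in each segment.

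A small number of gene numbers held long series of members. On the chromosomes, 6 numbers held 20 or more each, 145 members in all, and these were singled out after the counts were seen. The 31 members numbered within Sobic.005G1104 spread over 7.96 Mb of chromosome 5, and the 26 within Sobic.008G0888 over 10.2 Mb of chromosome 8. Segments 5 and 6 of the chromosomes, with 116 and 106 members, held 78 members of these series. Of the 145 members, 52 (35.9%) were detected, against 961 of the other 4549 members (21.1%). Their loci were longer, with medians from 2239 to 5532.5 bp by number, against 2047.5 bp for all members, shared spans included. Detection was not matched for length here. The detected ones had a median of 16.2 FPKM, against 5.02 FPKM for the other members. The highest member of each of the 6 numbers passed no threshold of change. Sobic.005G110541 (chromosome 5) had 215 FPKM at booting, 175 in the milky stage and 190 at maturity, and Sobic.008G088830 (chromosome 8) had 52.8, 67.3 and 66.8 FPKM. In all, 8 of the 52 (15.4%) passed the threshold of change in at least 1 comparison. The share was 25.8% of all detected members and 20.8% of detected 00 models. None of these shares was matched for level or locus length.

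Each member was also set beside the 00 model of the next lower number, which gave 4672 pairs on the same chromosome or scaffold. In 446 pairs (9.55%) both rows had 1 shared span, and the median gap of the others was 6906 bp. A member was detected in 24.3% of the 2559 pairs with a detected 00 model and in 18.5% of the 2113 pairs with an undetected one. In 1936 pairs only the 00 model was detected and in 390 only the member. Where both were detected, the member had the higher mean in 243 of 623 pairs (39.0%). Of the members in these 623 pairs that changed from booting to maturity, 107 in number, 16 had a 00 neighbour that changed in the same direction, 3 one that changed in the opposite direction, and 88 one that passed no threshold. Among all detected 00 models, 2144 of 15323 (14.0%) changed in this comparison, in either direction. Pairs on 1 shared span were kept in these counts.

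The largest differences in level above the lower 00 neighbour were those of abundant members beside nearly silent models. Sobic.003G071901 lay 299 bp from Sobic.003G071800, which had 0.165 FPKM at booting, 0.0375 in the milky stage and 0.0474 at maturity. Sobic.002G356101 lay 2172 bp from Sobic.002G356000 (0.0259, 0.0423 and 0.384 FPKM), and Sobic.007G120401 lay 9312 bp from Sobic.007G120200 (listed at 0, 0.00352 FPKM and listed at 0). Sobic.003G332401 (404, 335 and 303 FPKM, on a shared span) lay 1816 bp from Sobic.003G332300, which stayed under 0.03 FPKM. Sobic.001G091801 (270, 235 and 305 FPKM, on a shared span) lay 8262 bp from Sobic.001G091600, which reached 0.108 FPKM. In all 5 the member had no 00 model of its own number in the table. That was so for 35 of all 41 members with a mean of 100 FPKM or more, and for 648 of 1013 detected members.

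Overlap was more frequent among members. A span shared with another row was given for 951 members (20.3%) and 3688 00 models (13.8%). Of members on a shared span, 281 (29.5%) were detected, against 732 of the 3743 on their own span (19.6%). For 00 models the shares were 65.0% on shared spans and 56.1% on their own. Without shared spans the excess of falls over weighted 00 models was 2.45 percentage points from booting to the milky stage. It was 3.00 points from the milky stage to maturity and 3.90 over both. With locus length matched as well over unshared loci, the excess was smaller, at 1.201, 2.319 and 2.215 points in that order. That alternative was chosen after seeing the data.

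The single-ID rule leaves out IDs that the authors' table joins with others. Inserted IDs numbered 5202 in the whole table, of which 508 (9.77%) stood in merged rows, against 2198 of 28927 00 IDs (7.60%). Of 1262 merged rows, 412 (32.6%) held an inserted ID, and 278 of those joined 1 inserted with 1 00 ID. A merged row was detected in 370 of the 412 cases with an inserted ID (89.8%) and in 813 of the 850 without one (95.6%). The value of a merged row does not belong to a single model.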

How the data were processed

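The deposited table gives FPKM, per the file headers, as 1 value per stage made by the authors. Cuffdiff (no version), HISAT2 2.0.5, Bowtie2 2.2.9 and cutadapt 1.8.1 are named, without roles, per the submitters' processing notes. Per the labels' protocols the RNA was total RNA extracted with Trizol, and the kit keeps strand. Neither a genome build nor the way libraries were combined was given in the sources used here, and the table states no depth. Coordinates are the table's, with 1 added to starts, because 6 scaffold rows start at 0. Of 34129 IDs, 0 were found in the RefSeq table for Sorghum_bicolor_NCBIv3, so no sequence or description was used.

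The planned limma fit needed a value per library, and a rule of size replaced it, applied to the whole table: at least 1 FPKM in at least 1 stage, and a difference of at least 1 in log2(FPKM + 1). Shares of 00 models were weighted to the members' bins of mean FPKM. The code was tested on simulated data. Named members are the 12 highest means, the 5 largest rises and falls per comparison above 0 in both stages, members at 0 in 1 stage and at least 10 FPKM in another, the 5 steadiest, and the 5 furthest above their lower 00 neighbour. Members and lists were chosen with earlier results of these data known. Other settings were pseudocounts, filters, scalings, bins and loci. Python 3.11.15, numpy 2.4.6, pandas 2.3.3 and matplotlib 3.10.9 were used.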

Additional observations from a re-analysis of the deposited data

How the results depend on the processing

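Detection of members minus that of 00 models was −35.7 percentage points, and became −30.8 at a minimum of 5 FPKM, −26.3 with 00 models weighted by locus length and −22.3 with that weighting over unshared loci alone. The ratio of median levels, 0.426, became 0.684 at 5 FPKM. Counts of changed members were 134, 125 and 175 for milky stage vs booting, maturity vs milky stage and maturity vs booting. In that order they were 230, 215 and 270 with a pseudocount of 0.1, and 49, 43 and 79 with one of 5. They were 67, 62 and 90 where the mean had to reach 5 FPKM, and 25, 32 and 50 at a log2 threshold of 2. The settings behind these counts changed the weight of low values, the rows kept or the threshold itself. The excess of falls over weighted 00 models stayed above 0 in all 36 alternatives, between 0.387 and 4.51 points. The alternatives reuse the same stage values and overlapping sets of rows, so they are not 36 separate checks. For maturity vs booting it was 4.51 at a mean of at least 5 FPKM and 0.587 with no filter, and for maturity vs milky stage 0.444 with no filter, since undetected rows then enter the shares.

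The difference in rises had no stable direction. For milky stage vs booting, 0.0154 points became −1.19 with a pseudocount of 0.1, −0.54 with length matched, −0.394 with length matched over unshared loci and −0.272 without loci up to 600 bp. For maturity vs milky stage, 0.217 became −0.114 after rescaling by the median of ratios, −0.231 after quantile normalization, −0.463 with length matched and −0.243 with length matched over unshared loci. For maturity vs booting, −1.35 became 0.625 with a pseudocount of 5, 0.327 at a mean of at least 5 FPKM and 0.475 at a log2 difference of at least 2; the cause was not tested. Weighting by position, leaving out short loci, matching length over unshared loci and using 20 bins for values listed at 0 were chosen after seeing the data. No paired analysis was possible because the table gives 1 value per stage; for that reason no booting library was left out either.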

Other observations

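Members on unplaced scaffolds were nearly silent in the internode. Of 23 such members, 1 was detected, against 32.5% of the 00 models there. The number Sobic.K0444 held 20 of them, of which 9 were above 0 in some stage and 0 reached 1 FPKM. Its highest, Sobic.K044413, had 0.194 FPKM at booting, 0.0811 in the milky stage and 0.0906 at maturity.

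Row names in the table differ by whether a transcript was assembled. A name of the assembly was carried by 1968 members (41.9%) and 18810 00 models (70.4%), and the other rows kept the annotation's name with the version mark 3.2. Of the 2726 members with the annotation's name, 19 were detected, among them Sobic.001G170301, Sobic.001G038050 and Sobic.001G013701, which were named in the comparisons above. An assembled name depends on reads, so it is no separate sign of expression.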
